A study of Homo sapiens with 5 samples.

Results

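Hodgkin-only regions are stretches of the genome where DNase I left a peak of accessibility in each of the 3 Hodgkin lymphoma lines examined and in neither of the 2 other B-lineage lines. They were found by pooling the peaks of chromosomes 1 to 22 from all 5 deposited lists, merging peaks that shared at least 1 bp, and keeping merged regions with a peak of L1236, of L428 and of L591 and none of Reh or Namalwa. This gave 2518 of 58006 merged regions (4.34%), and 32.2% of the 7829 regions with a peak in all 3 Hodgkin lines. These regions were chosen by the presence and absence of listed peaks, so their number and their peak scores describe them and were not tested. The number depends on every list but that of Namalwa, and leaving out 1 list gave 5866 (L1236 left out), 4062 (L428), 3622 (L591), 4840 (Reh) or 2523 (Namalwa). It also depends on list length, with 1074 from the upper 50% of each list and 363 from lists of equal length.

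DNase-seq maps open chromatin by sequencing the short fragments that DNase I releases from nuclei. L1236, L428 and L591 are lines from Hodgkin lymphoma. The non-Hodgkin group of the labels consists of Reh, a line from pro-B lymphoblastic leukaemia, and Namalwa, one from Burkitt lymphoma. All lines had been grown in the same IMDM medium with FCS and were used at passage 7. Nuclei received DNase I at 6 U/ml for L1236 and L428 and at 12 U/ml for L591, against 6 U/ml for Reh and 12 U/ml for Namalwa, with no further treatment, after titration to a comparable extent of digestion. Each line is 1 established culture with 1 library, so replicates are different lines and a line has no error of its own.

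Sites where DNase I cuts readily are mostly promoters, enhancers and insulators from which bound factors have displaced nucleosomes. The malignant cells of Hodgkin lymphoma arise from B cells but have silenced much of the B cell programme, and they are known for constant NF-κB, JAK-STAT and AP-1 signalling. Sites open in Hodgkin lines and closed in other B-lineage lines are therefore where a study of this disease would look for regulatory elements of that altered state. The regions are given by their position in hg18, the build of the files, without genes or sequence, because a genome and an annotation of that build were not used here.

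The lists differed in length, which bears on what absence means, and in the lowest score per bp they held. On chromosomes 1 to 22 they held 24971 peaks in L1236, 22758 in L428 and 26030 in L591, against 27502 in Reh and 5643 in Namalwa. Each peak carries the authors' score, its area, for which no scaling to depth is given. The weakest peaks had 12.0 score units per bp for L1236, 6.60 for L428 and 5.70 for L591, against 3.67 for Reh and 4.42 for Namalwa. Without a common scale these values cannot be compared between lists as thresholds. Read depth is unknown, so a missing peak means that none was listed and not that the site was shown to be closed. Of the absences that the class asks for, that of Reh did nearly all the selecting and that of Namalwa almost none. Of the 2523 regions with a peak in all 3 Hodgkin lines and none in Reh, 5 had a Namalwa peak (0.198%), whereas 56.4% of those with a Reh peak also had one in Namalwa. Of all 4944 regions with a Namalwa peak, 98.7% held a Reh peak, so that a missing Namalwa peak adds little to a missing Reh peak. Whether these libraries share a source was not tested.

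Most Hodgkin-only regions were a single site seen in each of the 3 lines and not a chain of neighbouring peaks. Of the 2518 regions, 2485 (98.7%) had at least 1 base covered by all 3 Hodgkin lines, and 2345 (93.1%) had 150 bp or more in common. Merging asks for overlap, so common bases partly follow from the rule, and their shares were not taken in other classes. In 2209 of the Hodgkin-only regions (87.7%) each line contributed exactly 1 peak. Line by line, 93.4% of the regions had 1 peak in L1236, 93.6% in L428 and 97.5% in L591. Other classes had similar shares, at 87.4%, 87.3% and 94.2% in regions shared with Reh but not Namalwa. In regions of L428 and L591 only they were 97.7% in L428 and 99.5% in L591. The regions were 600 bp wide at the median, with a common stretch of 260 bp, and ran from 150 to 2710 bp. Among those with 1 peak per line, the widest peak belonged to L591 in 57.6%, to L1236 in 26.1% and to L428 in 13.2%. Over the whole lists the median peak was also widest in L591, at 450 bp against 310 bp in L1236 and 320 bp in L428.

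Peak centres of different lines lay close together within these regions. Where both lines had 1 peak, the centres of L428 and L591 were 40 bp apart at the median, those of L1236 and L428 50 bp and those of L1236 and L591 55 bp. Centres lay within 100 bp of each other in 81.1% of the L428 and L591 pairs, in 77.2% of the L1236 and L428 pairs and in 74.0% of the L1236 and L591 pairs. Regions that also had a Reh peak but none in Namalwa gave lower shares for the same pairs, 75.1%, 66.4% and 62.0%. Those regions were also wider, with a median of 760 bp, and the part of width in the difference was not tested. In regions of L428, L591 and Reh only, with a median width of 570 bp, the share for L428 and L591 was 79.1%.

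Within each Hodgkin list the peaks of these regions ranked somewhat above the middle. The score percentile, the share of peaks of the same list with an equal or lower score, had a median of 64.6 in L1236, 60.8 in L428 and 60.5 in L591, where a list's regions as a whole had medians of 51.3, 51.5 and 50.6. Above percentile 90 stood 389 of them in L1236 (15.4%), 297 in L428 (11.8%) and 283 in L591 (11.2%). They made up 15.7%, 13.6% and 11.1% of all regions above percentile 90, against 10.6%, 11.9% and 9.98% of all regions of these lists. At percentile 10 or below stood 116, 122 and 117, or 5.08%, 6.15% and 4.76% of all regions there. Regions of all 5 lines ranked higher in each of these lists, with medians of 78.2, 86.0 and 90.5. Classes of fewer Hodgkin lines ranked lower. Regions of L1236 and L428 only had medians of 56.2 and 39.3 in these lines. Those of L1236 and L591 only had 49.0 and 40.3, and those of L428 and L591 only 47.6 and 41.9. Regions of a single Hodgkin line had 39.4 in L1236, 28.9 in L428 and 28.8 in L591. Regions shared with Reh but not Namalwa had medians of 60.6 in L1236, 67.7 in L428 and 75.6 in L591, so that they stood above Hodgkin-only regions in L428 and L591 and below them in L1236.

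**Figure D1:**
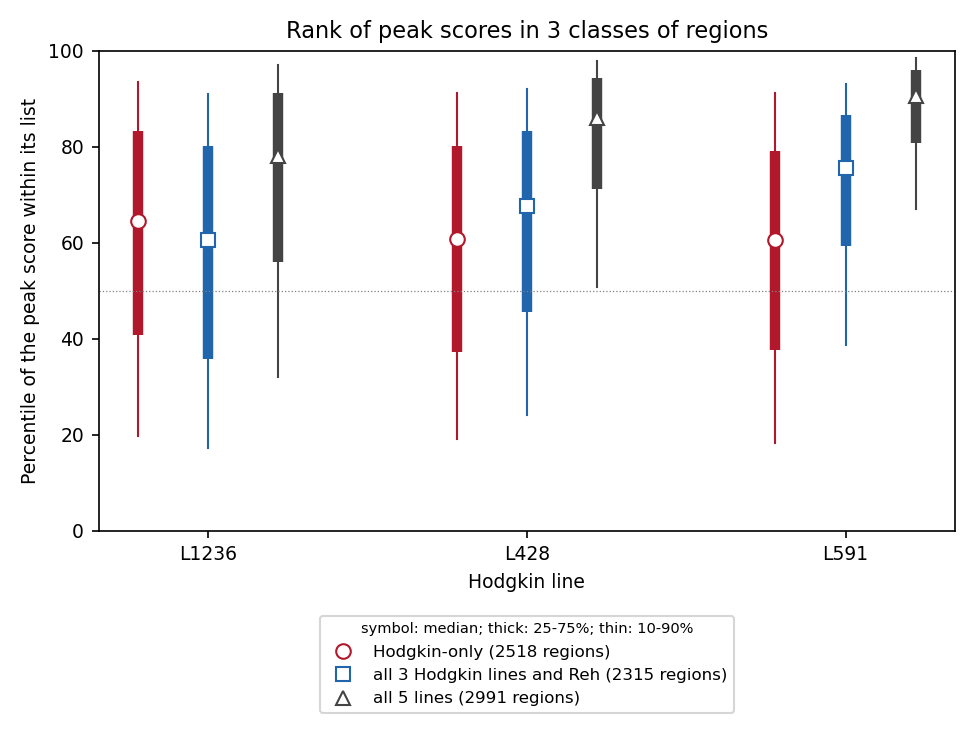
Score percentile within its own list (vertical axis, 0 to 100) of the highest peak of each Hodgkin line (horizontal axis) in Hodgkin-only regions, in regions of all 3 Hodgkin lines and Reh, and in regions of all 5 lines. Symbols are medians, thick bars span the middle 50% of regions and thin bars the 10th to 90th percentile. The Hodgkin-only medians lie between 60.5 and 64.6 in the 3 lines, while those of the regions of all 5 lines lie between 78.2 and 90.5.

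The stronger a region was in all 3 Hodgkin lines, the less often it lacked a peak in Reh and Namalwa. Regions with a peak in all 3 Hodgkin lines were ordered by the lowest of their 3 percentiles. Where that value was 10 or less, 321 of 636 were Hodgkin-only (50.5%, exact 95% interval 46.5 to 54.4). Where it was above 40 and up to 50, 271 of 821 were (33.0%, 29.8 to 36.3). Where it was above 90, 56 of 644 were (8.70%, 6.64 to 11.1). The decline continued through every bin but that from 50 to 60, whose 34.3% stood slightly above the bin before it. Intervals here and elsewhere are exact binomial ones, cover counting error only and treat regions as independent, which neighbouring regions are not. Region width moved with this order, with medians of 560 bp in the lowest bin and 1220 bp in the highest, and was 600 bp in Hodgkin-only regions against 870 bp in those with a Reh or Namalwa peak. A score is an area and a wider region can meet a Reh peak more easily, and the part of width in the decline was not tested. The lowest percentile was 36.4 at the median in Hodgkin-only regions and 59.0 in the 5311 regions that also had a Reh or Namalwa peak. From the lists, a site closed in Reh and a weak one that the Reh list missed cannot be told apart. At the high end, 264 Hodgkin-only regions (10.5%) lay above percentile 75 in all 3 lists, against 324 of the 2315 regions of all 3 Hodgkin lines and Reh (14.0%) and 1300 of the 2991 regions of all 5 lines (43.5%).

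**Figure D2:**
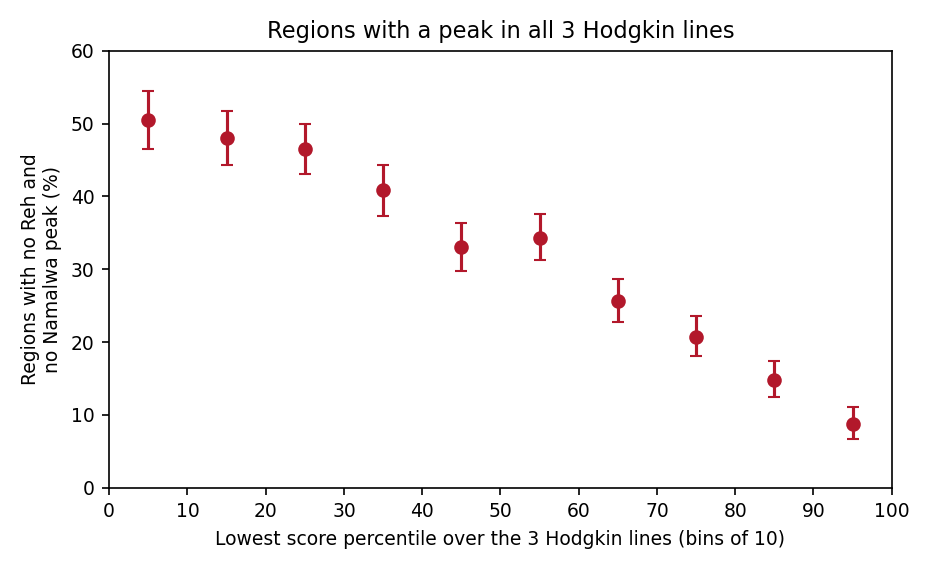
Share of regions with no Reh and no Namalwa peak (vertical axis, percent) among the 7829 regions with a peak in all 3 Hodgkin lines, by the lowest of their 3 score percentiles (horizontal axis, bins of 10). Points are shares and bars exact 95% intervals. The share is 50.5% in the lowest bin and 8.70% in the highest.

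The 3 lines did not rank the regions alike. Across the 2518 regions Spearman's rho of the percentile was 0.405 between L428 and L591, 0.250 between L1236 and L428 and 0.251 between L1236 and L591. These are correlations across regions of 3 single libraries, all selected for having a peak, and carry no p-value. The highest and lowest percentile of a region differed by 35.0 points at the median and by more than 50 points in 716 regions (28.4%). In 705 regions (28.0%) at least 1 line was above percentile 90, and in 256 of the 2518 (10.2%) another line was at percentile 50 or below at the same place. These shares were not taken in other classes of regions. The top rank fell to L1236 in 998 regions, to L591 in 772 and to L428 in 748. The lowest rank was shared almost evenly, with 834 in L1236, 846 in L428 and 838 in L591.

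The 10 regions that ranked highest in all 3 lists were ordered by the lowest of the 3 percentiles, which ran from 97.6 to 95.7, while the region in 11th place also had 95.7. The first, chr2:98857841-98858880, had percentiles of 97.6 in L1236, 99.1 in L428 and 98.9 in L591. Its peaks were 1030, 1000 and 1030 bp wide in these lines and shared 1000 bp. The outlines were thus nearly the same in all 3 lists, and the nearest region with a Reh peak lay 33.0 kb away. Another Hodgkin-only region lay 0.87 kb from it.

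The second, chr2:38117881-38119680, was the widest of the leading 10 at 1800 bp, with 1510 bp in common. It had percentiles of 99.3 in L1236, 97.2 in L428 and 99.4 in L591. Its score per bp was high in L1236 and L591 (46.7 and 23.03) but ordinary in L428 (10.7, percentile 52.6 by score per bp). Its rank in L428 therefore goes with its width of 1510 bp, since a score is an area. At chr2:102210401-102211000 the opposite held. That region was 600 bp wide, the narrowest of the leading 10, and had 60.5 score units per bp in L1236, 24.6 in L428 and 41.7 in L591, at percentiles of 98.0, 97.5 and 99.5 by score per bp. It was also the leading region farthest from Reh accessibility, at 464 kb.

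The other leading regions were chr7:55343961-55344880, chr2:64686961-64688050, chr3:33008671-33010090, chr5:169193401-169194480, chr7:5547141-5548510, chr3:162086081-162087440 and chr5:5078571-5079880. The last of these had percentiles of 95.7 in L1236, 97.5 in L428 and 97.8 in L591 and lay 287 kb from the nearest region with a Reh peak. In chr7:5547141-5548510, with percentiles of 97.3, 96.3 and 97.7 in the same order of lines, L428 had 2 peaks, and a Reh region lay 7.58 kb away, the shortest such distance of the leading 10. All 10 had between 570 and 1510 bp in common to the 3 lines. In 9 of them no Reh region lay within 20 kb, and 6 had another Hodgkin-only region within that distance.

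The widest members were chains of several peaks in at least 1 line. At chr6:236101-238810, the widest at 2710 bp, L591 had 1 peak over the whole region at percentile 99.7, L428 had 2 peaks with a highest percentile of 89.2, and L1236 had a single peak of 440 bp at percentile 56.2. At chr20:13264771-13267450 it was L1236 that covered all 2680 bp with 1 peak, at percentile 99.1, while L428 had 4 peaks and L591 2, with highest percentiles of 58.7 and 68.9. The line with the broad peak thus differed between them. The next in width were chr2:9712831-9715220, chr5:131462541-131464920 and chr9:1868591-1870880, with 840 to 970 bp in common.

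How often the line that completes the class had a peak follows from the same presence and absence calls that chose the members, and is given as a description. Of the 5832 regions with a peak in L428 and L591 and none in Reh or Namalwa, 2518 (43.2%, 41.9 to 44.5) had one in L1236. Of the 4057 such regions of L1236 and L591, 62.1% (60.6 to 63.6) had one in L428, and of the 3581 of L1236 and L428, 70.3% (68.8 to 71.8) had one in L591. Where Reh had a peak, with or without Namalwa, these shares were 65.7%, 87.8% and 95.4% in the same order. Seen from Reh, 67.8% of the regions with all 3 Hodgkin lines had a Reh peak, against 45.5% of those with L428 and L591 but not L1236, 32.3% with L1236 and L591 but not L428, and 19.2% with L1236 and L428 but not L591. Each share comes from single libraries, and no p-value was computed.

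Most Hodgkin-only regions had a region with a Reh peak within 100 kb, though most had none within 20 kb. The nearest region with a Reh peak was 32.7 kb away at the median. It lay within 1 kb for 175 (6.95%), within 20 kb for 1011 (40.2%, 38.2 to 42.1) and within 100 kb for 1872 (74.3%), and beyond 1 Mb for 31 (1.23%). The share within 20 kb was 44.3% for regions of L1236 and L591 only, 38.6% for L1236 and L428 only and 35.3% for L428 and L591 only, so that the Hodgkin-only value lay among those of other regions without a Reh peak. With lists of equal length the Hodgkin-only share was 14.9%. The median percentile in L428 was 53.0 for members within 1 kb of a Reh region, 64.3 from 20 to 100 kb and 61.9 beyond 100 kb. In L591 it was 55.1, 61.2 and 63.1 in the same order, and in L1236 60.8, 66.5 and 61.2. Members close to a Reh region thus ranked lower in L428 and L591, with no steady order in L1236.

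At the edge of the definition, chr3:151609381-151609740 and chr9:35804281-35804870 directly adjoined a region with a Reh peak without sharing a base with it, and 5 more were 10 bp away. The first had percentiles of 25.3 in L1236, 25.5 in L428 and 11.4 in L591, and the second 31.5, 59.5 and 45.8. Just outside, among the 2315 regions of all 3 Hodgkin lines and Reh, the smallest overlap of a Reh peak with the Hodgkin peaks was 10 bp, in 1 region, and 4 regions had 50 bp or less. In 155 of them (6.70%) the Reh peak covered none of the bases common to the Hodgkin lines. The farthest from Reh were chr4:31786151-31786550 at 4445 kb, chr4:31569081-31569530 at 4228 kb and chr2:80605631-80606510 at 3789 kb. The first of these had percentiles of 61.9 in L1236, 28.6 in L428 and 37.2 in L591, and all 3 ranked far below the leading regions in at least 1 list.

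In nearness to their own class and in neighbours with a Reh peak, Hodgkin-only regions lay within the range of other Hodgkin classes without Reh. Another Hodgkin-only region lay within 20 kb of 757 (30.1%, 28.3 to 31.9). The same measure within their own class gave 17.9% (16.4 to 19.5) for the 2315 regions of all 3 Hodgkin lines and Reh, 21.0% for the 2991 regions of all 5 lines and 15.8% for the 2078 regions of L428, L591 and Reh only. It was closer in regions of 2 Hodgkin lines, at 28.0% for the 3314 of L428 and L591 only, 25.2% for the 1063 of L1236 and L428 only and 23.1% for the 1539 of L1236 and L591 only. In regions of a single Hodgkin line it was higher, at 68.8% for the 11370 of L1236 alone, 40.8% for the 5193 of L428 alone and 43.1% for the 7217 of L591 alone. These shares also depend on the number of regions in a class, and no test of chance placement was made. With lists of equal length, which left 363 Hodgkin-only regions, the share was 12.9%. Of the regions immediately before and after a Hodgkin-only region, 25.2% had a Reh peak, against 49.7% for regions of all 3 Hodgkin lines and Reh and 44.3% over all merged regions. The regions of L1236 alone had 21.3%, those of L428 alone 28.1% and those of L591 alone 31.4%, on either side of the Hodgkin-only value. In the same count 9.89% of the neighbours were themselves Hodgkin-only, against 4.34% around merged regions in general. Around regions of 2 Hodgkin lines that share was 8.65% for L1236 and L428 only, 6.86% for L1236 and L591 only and 6.19% for L428 and L591 only.

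**Figure D3:**
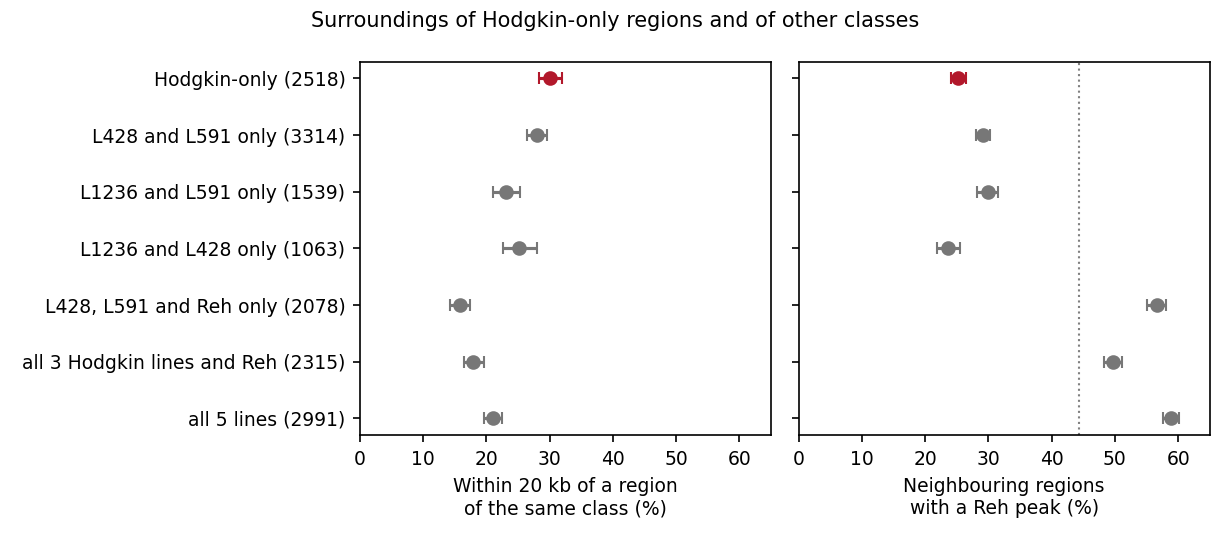
Surroundings of Hodgkin-only regions and of 6 other classes, with the number of regions in brackets. The left panel gives the percentage within 20 kb of a region of the same class and the right panel the percentage of immediately neighbouring regions that have a Reh peak, with exact 95% intervals and a dotted line at the value over all merged regions (44.3%). Hodgkin-only regions stand at 30.1% and 25.2%, near the classes of 2 Hodgkin lines and apart from the classes that include Reh.

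Joined at gaps of up to 20 kb, the regions formed 2062 chains, of which 1761 were single regions, and 36 chains of 4 or more held 182 regions. Regions in these longer chains ranked higher than single ones, with a median percentile of 81.3 against 61.7 in L1236, 71.4 against 58.3 in L428 and 68.1 against 58.9 in L591. The difference was thus largest in L1236. Regions in the longer chains were also wider, with a median of 775 bp against 580 bp. A score is an area, and the part of width in these ranks was not tested. Distance to Reh was similar for regions in the longer chains and single ones, with a Reh region within 20 kb for 43.4% against 39.4%.

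The longest chain held 9 Hodgkin-only regions in 57.9 kb at chr1:210905061-210962950. L1236 had 30 regions there, L428 11 and L591 15, against 1 in Reh and 0 in Namalwa. Median percentiles of the 9 were 94.5 in L1236, 70.6 in L428 and 50.3 in L591. The chain was thus strongest in L1236, which also had the most additional peaks. The L1236 list is the only one without the mark qcTrimmed. Its regions found in no other line also lay near each other most often among the single Hodgkin lines (68.8% within 20 kb). The part of the list's processing or of copy number in this and the other chains was not tested. The chain at chr3:123276181-123306490 held 8 in 30.3 kb, where L1236 had 19 regions, L428 10 and L591 8, and neither Reh nor Namalwa had any.

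The chains that followed held 7 regions each, and 5 of them shared that number. At chr2:231231601-231242290 the 7 lay within 10.7 kb, where L1236 had 7 regions, L428 8 and L591 7, against 0 in Reh and in Namalwa. Nearly the same sites were listed in the 3 Hodgkin lines, with median percentiles of 71.7, 84.0 and 83.01. At chr8:129151471-129191200 median percentiles were high, at 96.4 in L1236, 94.3 in L428 and 89.9 in L591, although 1 member stood at 25.1 in L428, and no Reh peak followed for 1716 kb. At chr2:191251381-191296310 the medians were 92.3, 85.3 and 92.1, and no Reh peak lay within 143 kb on either side.

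At chr5:131428321-131467990, members reached percentiles of up to 99.3 in L1236, 91.2 in L428 and 79.5 in L591, and L1236 had 16 regions there against 0 in Reh. This chain includes the region at chr5:131462541-131464920 named above for its width. In the chain at chr19:55287521-55324080, as in that of chromosome 1, Reh peaks stood between members. Reh had 5 regions within its 36.6 kb and L1236 28, and the 7 Hodgkin-only regions had median percentiles of 98.6 in L1236, 80.7 in L428 and 61.4 in L591. Reh peaks at 8.55 and 30.16 kb from the first base of this chain lay in regions with peaks of L1236, L428 and L591. Those at 6.42 and 34.14 kb met an L1236 peak alone, and that at 23.75 kb none. L1236 peaks at percentiles of 98.1 to 98.7 began at 14.1, 19.42, 24.76, 30.11 and 35.55 kb. Their steps were nearly even, and whether reads map uniquely there was not tested.

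**Figure D4:**
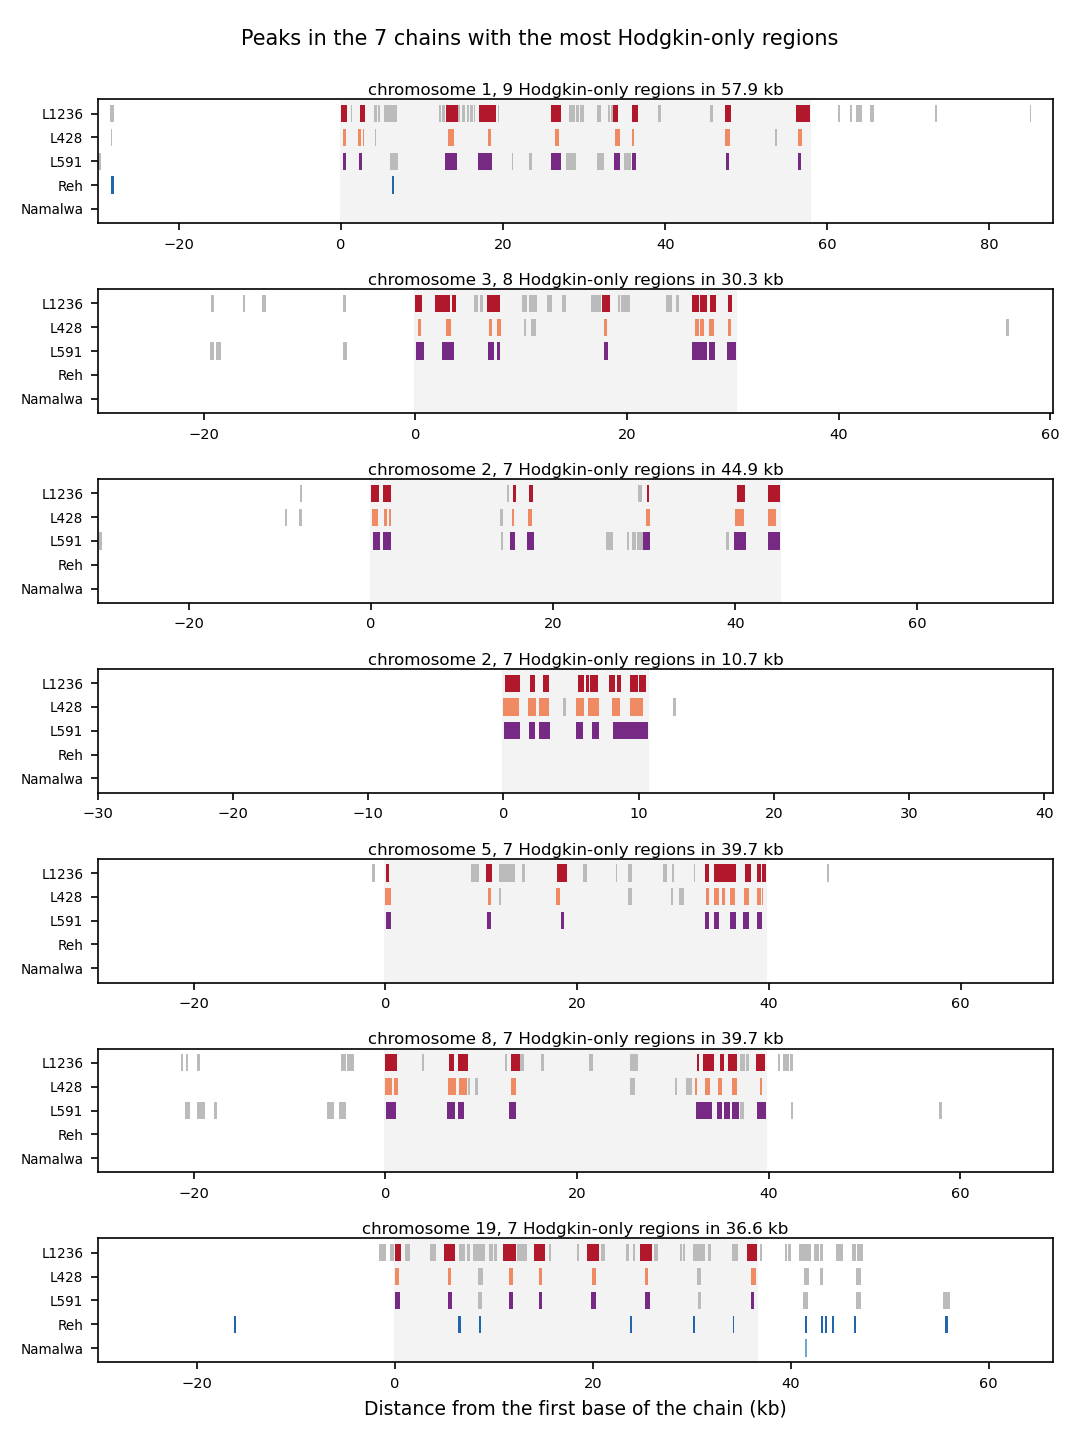
Peaks of the 5 lines in the 7 chains with the most Hodgkin-only regions, against distance in kb from the first base of each chain (shaded), with 30 kb on either side. Coloured bars are peaks of Hodgkin-only regions in L1236, L428 and L591 and all peaks of Reh and Namalwa, and grey bars are other peaks of the Hodgkin lines. Inside the chains Reh has peaks in those of chromosomes 1 and 19 alone, and L1236 has most of the grey peaks in the chains of chromosomes 1, 3, 5, 8 and 19.

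Some stretches between successive Reh peaks held many Hodgkin-only regions. The most, 16, lay in the 1936 kb of chr8:128971741-130907460, where L1236 had 52 regions, L428 36 and L591 54. An interval of 387 kb at chr3:123197091-123584530 held 11, and 2 intervals on chromosome 5, at chr5:142362381-142715550 and chr5:39110561-40627960, held 10 each. Such stretches were the exception. Those with 5 or more members numbered 39 and held 252 members (10.0%), while members lay in 1719 stretches in all.

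By windows of 1 Mb, the 17 Hodgkin-only regions between 138 and 139 Mb of chromosome 6 made up 17 of the 20 regions with all 3 Hodgkin lines there. Their median percentile was 96.1 in L428, 77.9 in L591 and 44.1 in L1236, so that this stretch was strongest in L428. On chromosome 8 between 129 and 130 Mb all 16 regions of the 3 Hodgkin lines lacked Reh and Namalwa, with medians of 94.95 in L1236, 92.7 in L428 and 88.8 in L591. On chromosome 17 between 35 and 36 Mb, in contrast, 13 of 26 were Hodgkin-only and Reh had 43 regions in the window. Also with 13, of 17 regions with all 3 Hodgkin lines, were the windows that start at 123 Mb of chromosome 3 and at 64 Mb of chromosome 2. Copy number can change the number of peaks in a stretch, and its part in these counts was not tested.

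Chromosomes differed in how much of the accessibility shared by the Hodgkin lines was missing from Reh and Namalwa. The share was 44.1% on chromosome 2 (330 of 748, 40.5 to 47.8) and 13.2% on chromosome 19 (71 of 537, 10.5 to 16.4), around 32.2% over all autosomes. It was also high on chromosome 8 at 42.0% (132 of 314), chromosome 6 at 40.6% (197 of 485) and chromosome 5 at 40.1% (187 of 466). The highest value, 46.8% on chromosome 18, rests on 36 of 77 regions, with an interval of 35.3 to 58.5. Chromosome 21, at 40.4%, also rests on few regions (23 of 57, 27.6 to 54.2). Low shares were those of chromosome 11 at 23.3%, chromosome 16 at 26.5%, chromosome 1 at 26.6% and chromosome 17 at 27.1%. Chromosome 13 had 23.7%, from 14 of 59 regions. The lists themselves were spread in a like way, with 10.1% of L1236, 9.55% of L428 and 10.5% of L591 peaks on chromosome 2, against 6.59% of Reh and 6.38% of Namalwa peaks. On chromosome 19 it was 4.86%, 4.51% and 4.78%, against 6.97% and 9.46%. These spreads come from the same peaks as the class and add no independent evidence. The part of copy number in the shares by chromosome was not tested.

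**Figure D5:**
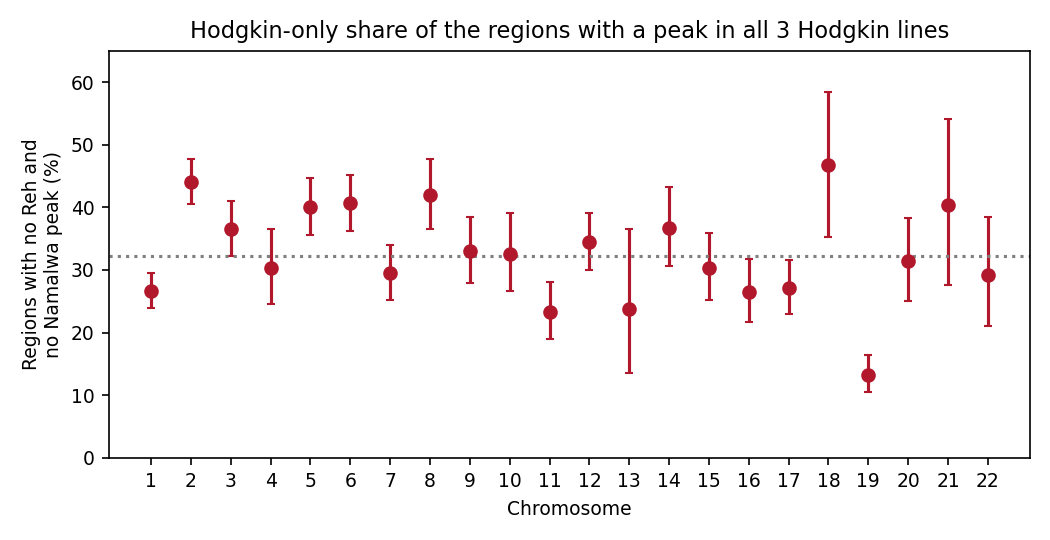
Share of regions with no Reh and no Namalwa peak (vertical axis, percent) among regions with a peak in all 3 Hodgkin lines, by chromosome. Points are shares, bars exact 95% intervals, and the dotted line marks the share over all autosomes (32.2%). Chromosome 19 is lowest at 13.2% and chromosome 18, with few regions, highest at 46.8%.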

How the data were processed

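The labels' lymphoma type placed the DNase-seq peak lists of 5 lines in 2 groups. The submitters' processing notes name Bowtie 1.00 and the build hg18. Per the file columns, the authors extended reads to 146 bp and counted them in bins of 10 bp. Depth, peak caller and its threshold: not given in the sources used here. There is 1 list per line, and the file of L1236 alone lacks the mark qcTrimmed. A growth note in the labels spells L591 as L519, and the title was followed. The deposited score is a peak area in whole numbers with no stated scaling, so peaks were ranked by its percentile within their own list. Where score per bp is printed, its values are not comparable between lists. A line's value in a region is its highest peak. Start and end positions (other columns) are 1-based, as deposited by the authors.

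Distances count the bases between regions, to the nearest region on the same chromosome, and 20 kb counted as near. Named are the 10 leading regions by the lowest percentile, the 5 widest, the 5 longest chains with ties, the 5 fullest windows of 1 Mb, and those nearest to and farthest from Reh. Stretches between Reh peaks were added after seeing the data. The members and lists were chosen with earlier results of these data known. No test was made, since peaks chose the members. The merging was tested on simulated lists of 20000 sites, some adjoining, where 3294 planted and 3294 found Hodgkin-only sites were equal in number. Each simulated line had 1 peak per site, inside the widest peak there. Chained peaks and several peaks per line were thus not covered. Gene lists and motifs planned for an hg18 annotation were not used here. Python 3.11.15, numpy 2.4.6, pandas 2.3.3, scipy 1.17.1 and matplotlib 3.10.9 were used.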

Additional observations from a re-analysis of the deposited data

How the results depend on the processing

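The count of 2518 stayed within 1.5 times under every joining rule and with chromosome X added (2403 to 2566). It was 1074 with the upper 50% of each list and 363 with lists of equal length, which hold fewer peaks by construction. Leaving out a line gave 2523 to 5866 regions, the lowest without Namalwa, the highest without L1236, 4062 without L428 and 4840 without Reh. Without L1236 all lists carry the qcTrimmed mark. With the lists digested at 6 U/ml alone, chosen after seeing the data, 3629 regions had L1236 and L428 and no Reh peak, and with those at 12 U/ml 21751 had L591 and no Namalwa peak. The 98.7% with a common base became 99.3% with centres within 250 bp, 97.4% with peaks up to 200 bp apart joined, 91.1% with peaks of 200 bp and 99.7% with lists of equal length, and ran from 98.0% to 100% with a line left out, where a pair of lines that share a region always share a base. The 30.1% near another member became 27.8% with peaks of 200 bp, 22.3% with the upper 50%, 12.9% with lists of equal length, 23.4% within 10 kb and 42.4% within 50 kb, and ran from 30.04% to 38.83% with a line left out. The 40.2% near a Reh region became 42.6% with peaks of 200 bp, 28.8% with the upper 50%, 14.9% with lists of equal length, 28.0% within 10 kb and 59.0% within 50 kb, and ran from 37.6% to 41.8% with a line left out. The median lowest percentile of 36.4 became 31.0 with the upper 50% and 30.5 with lists of equal length, where percentiles refer to the shortened lists, and ran from 35.7 to 40.4 with a line left out. By score per bp or by width it moved by less than the SD between the 3 lines' medians (2.28). Where no construction is named, the cause was not tested. No paired analysis was possible because the samples are different lines and nothing in the labels pairs them across the groups. Unknown depth limits every statement on absence.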
